A study of Homo sapiens with 24 samples.

Results

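The lysosome genes are 37 genes that encode the enzymes, membrane proteins and proton pump of the lysosome. They were taken by gene symbol from all 24 deposited expression tables, where they fill 38 of 48162 gene rows. Membership rested on the symbol alone, with no threshold on a measured value. By role, 23 encode acid hydrolases or their activator, 5 encode lysosomal membrane proteins, 8 encode subunits of the proton pump, and TFEB encodes a transcription factor. CLN3, which encodes a lysosomal membrane protein, was listed under 2 overlapping identifiers. The first had at most 18 reads in any library and the second had 0 in all 24, so CLN3 is given no comparison. Whether counting left out reads that fall on both identifiers was not tested.

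Gene expression was profiled by RNA-seq in a pair of immortalised human pancreas cell lines, hTERT-HPNE, which carries added telomerase and is called HPNE below, and the duct epithelial line HPDE-H6c7, called HPDE. Each line was kept for 24 h in fresh serum-free medium, in residual medium left after vesicle isolation (the negative control), or with extracellular vesicles (1e10 added to a well) that PANC-1 or PPCL-68 cells had released. PANC-1 is a pancreatic carcinoma line. Each of the 8 groups held 3 libraries, described in the series as biological triplicates, and each line is a cultured line grown in keratinocyte serum-free medium, so the groups describe these lines rather than pancreas tissue. In bulk RNA, fewer cells of a kind and less RNA per cell cannot be told apart.

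The lysosome is the acidic compartment in which cells break down proteins, glycans and lipids delivered by endocytosis and autophagy. A multi-subunit ATPase pumps protons across its membrane, and the low pH activates hydrolases that are made in the endoplasmic reticulum and delivered through the Golgi. Extracellular vesicles taken up by endocytosis can reach this compartment. Many of its genes share a promoter element, the CLEAR element, that is bound by TFEB and its relatives, and nutrient signalling through mTORC1 controls the entry of TFEB into the nucleus.

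Promoter sequences are shown because the genes were measured for joint changes and the CLEAR element is the feature they are best known to share. RefSeq promoters (build GRCh38.p14, the 250 bases before each listed start) were found for 23 of the 37 genes, as 29 promoters. The E-box core CACGTG, which reads the same on both strands, occurred in 6.34% of all 35116 promoters and in 9 of the 29 promoters of lysosome genes, which belong to 8 genes. The longer palindrome TCACGTGA occurred in 0.854% of all promoters and in 5 of the 29. It contains the core and also reads the same on both strands. The stretches below run 5′ to 3′ on the strand of the gene, with every copy of the core in capitals, extended to the longer palindrome where it is present. A match describes the letters and does not show that a protein is bound.
LAMP1: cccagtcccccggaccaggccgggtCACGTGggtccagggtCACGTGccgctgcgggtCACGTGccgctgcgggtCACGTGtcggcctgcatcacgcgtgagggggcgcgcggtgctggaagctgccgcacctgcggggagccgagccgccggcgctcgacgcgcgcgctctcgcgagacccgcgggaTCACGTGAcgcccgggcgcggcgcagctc
MCOLN1: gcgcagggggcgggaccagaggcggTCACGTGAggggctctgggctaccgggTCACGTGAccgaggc
CTSA: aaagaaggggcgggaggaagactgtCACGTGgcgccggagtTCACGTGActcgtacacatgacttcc
CTSD: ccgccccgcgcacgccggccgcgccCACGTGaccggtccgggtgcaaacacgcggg
GAA: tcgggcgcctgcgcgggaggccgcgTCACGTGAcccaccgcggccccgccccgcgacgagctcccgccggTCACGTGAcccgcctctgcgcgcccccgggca
NEU1: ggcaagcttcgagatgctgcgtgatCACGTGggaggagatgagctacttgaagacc
ATP6V0D1: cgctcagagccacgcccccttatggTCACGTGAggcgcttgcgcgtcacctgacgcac

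The LAMP1 stretch lies at chr13:113297022-113297238 on the plus strand and holds 5 copies of the core. The MCOLN1 stretch (chr19:7522557-7522623, plus strand), the CTSA stretch (chr20:45891268-45891334, plus strand) and the GAA stretch (chr17:80101479-80101580, plus strand) hold 2 copies each. The CTSD stretch (chr11:1763944-1763999), the NEU1 stretch (chr6:31862917-31862972) and the ATP6V0D1 stretch (chr16:67481185-67481242) are on the minus strand and hold 1 copy each. The eighth gene with the core is CLN3.

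Between 29209142 and 46490312 reads were assigned to genes in each library, and 100% of the deposited values came out as whole reads (tolerance 0.01 read). All 6 markers of duct epithelium lay between 44.9 and 1161 FPKM in HPDE and at or below 6.28 FPKM in HPNE. All 6 markers of the HPNE line (TERT, VIM, CDH2, COL1A1, COL1A2 and FN1) lay at or above 8.34 FPKM in HPNE. In HPDE, FN1 reached 126 FPKM and COL1A2 was listed at 0 in some libraries. The 5 leukocyte markers stayed at or below 2.07 FPKM, and the 2 endothelial, 3 acinar and 2 islet markers at or below 0.159 FPKM, in every library. In each HPNE group 1 library stood apart, by 2.05 to 3.31 times the distance between the other 2: replicate 3 of fresh medium, replicate 3 of residual medium, replicate 1 with PANC-1 vesicles and replicate 1 with PPCL-68 vesicles. The same ratio was 1.08 to 1.24 in HPDE. HPNE counts are therefore given with and without those 4 libraries, a choice made after the data had been seen. That choice keeps the 2 closest libraries of each group and so narrows the spread within groups by selection. Higher counts without the 4 libraries are therefore no evidence of more change.

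Levels are in FPKM, in which reads are scaled by gene length and library depth, so that genes can be compared. Differences are on the log2(FPKM + 1) scale with their standard error (±SE) and a Benjamini-Hochberg adjusted p from limma, and a gene is called when that p is under 0.05. This scale understates changes of weakly expressed genes. Where groups are said not to overlap, this describes their libraries and is not a test. The share of all genes without overlap was not counted. In HPNE 36 of the 37 genes had a mean of at least 1 FPKM and were tested. In HPDE 34 were, the exceptions being CLN3, CTSK and HEXA.

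**Figure D1:**
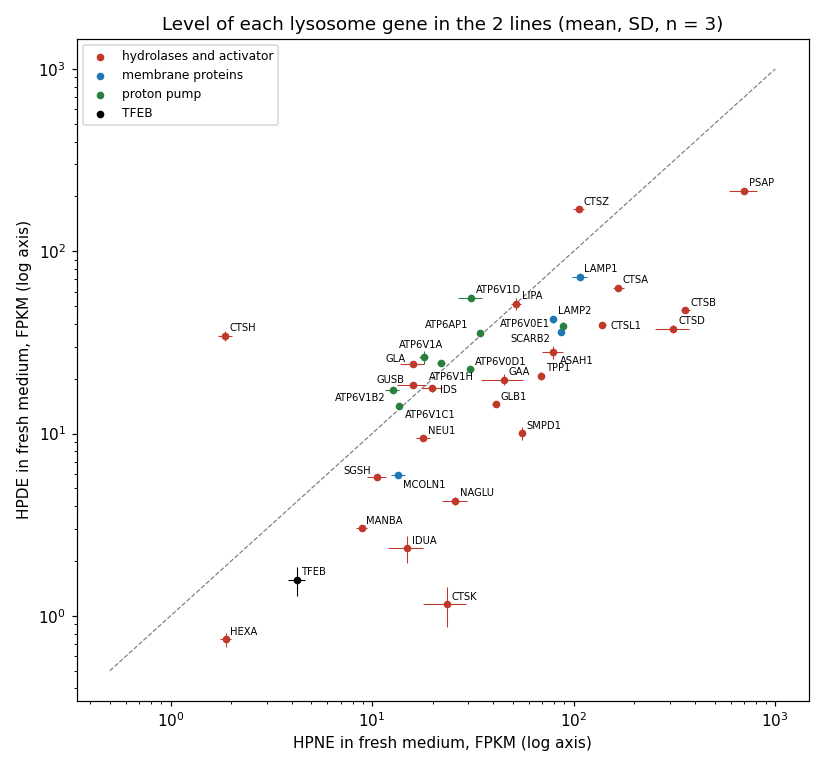
Mean FPKM of 36 lysosome genes in fresh medium in HPNE (horizontal axis) and HPDE (vertical axis), both axes logarithmic, with bars for the SD over 3 libraries; the dashed line marks equal levels. Most hydrolases (red) and all 4 membrane proteins shown (blue) lie below the line, CTSH lies far above it, and the pump subunits (green) lie on both sides.

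In fresh medium HPNE held more mRNA for most lysosome genes than HPDE. Of 36 genes tested, 24 were lower in HPDE and 6 were higher, against 27.7% lower and 56.0% higher among all 12377 genes tested and 83.8% called in all. The median difference of the lysosome genes was -0.96 (HPDE minus HPNE), while that of all genes was 0.38. Scaling by median-of-ratios size factors moved the median of all genes to 0.07, and the split of the lysosome genes was then 4 higher and 29 lower, with 43.6% of all genes higher and 38.4% lower. Relative to all genes the median was -1.33 under either scaling. Summed over the hydrolases and their activator, the level was 2284 ± 213 FPKM in HPNE against 838 ± 5.79 FPKM in HPDE (SD, n = 3). The pump subunits summed to 250.5 ± 6.80 and 235 ± 4.50 FPKM.

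All 4 membrane proteins tested were lower in HPDE. LAMP1 and LAMP2, the main glycoproteins that line the inner face of the membrane, stood at 107 ± 9.002 and 79.4 ± 2.52 FPKM in HPNE and at 72.3 ± 1.05 and 42.5 ± 1.93 FPKM in HPDE. SCARB2, which carries glucocerebrosidase to the lysosome, had 86.1 ± 1.97 and 36.2 ± 1.20 FPKM, and the calcium channel MCOLN1 had 13.5 ± 1.02 and 5.96 ± 0.107 FPKM. No library of one line overlapped the other line for these 4 genes.

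Cathepsins differed in both directions, with 6 proteases lower and 2 higher in HPDE. The aspartic protease CTSD had 347, 346 and 245 FPKM in the 3 HPNE libraries and 39.1, 35.7 and 37.9 FPKM in HPDE, a log2 difference of -3.01 ± 0.16 (adjusted p = 2.9e-13). The cysteine protease CTSB averaged 359 ± 18.7 FPKM in HPNE, against 47.3 ± 0.660 FPKM in HPDE. CTSK, the collagen-degrading protease of osteoclasts, had 21.1, 19.6 and 30.2 FPKM in HPNE but 0.882, 1.46 and 1.13 FPKM in HPDE. The ratios of the HPDE to the HPNE mean were 0.120, 0.132 and 0.0489 for these 3 genes. CTSH, an aminopeptidase, went the other way, with 1.71, 2.01 and 1.89 FPKM in HPNE and 34.6, 36.2 and 32.1 FPKM in HPDE (3.62 ± 0.12, adjusted p = 7.1e-17). CTSZ, a carboxypeptidase, was also higher in HPDE, at 170.03 ± 4.24 against 106 ± 6.64 FPKM. The remaining proteases CTSA, CTSL1 and TPP1 were lower in HPDE, with differences of -1.39, -1.79 and -1.69.

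Among the other hydrolases, 7 of 9 glycosidases were lower in HPDE. NAGLU and IDUA, which degrade heparan sulfate, fell furthest apart, at 25.9 ± 3.63 and 14.9 ± 2.99 FPKM in HPNE and 4.27 ± 0.234 and 2.35 ± 0.389 FPKM in HPDE. GLA, the alpha-galactosidase missing in Fabry disease, was higher in HPDE, at 24.1 ± 1.02 against 15.9 ± 2.17 FPKM, and GUSB did not pass the test (18.5 ± 0.498 and 15.9 ± 2.57 FPKM). GAA (glycogen), GLB1 (galactosides), HEXA (gangliosides), MANBA (mannosides) and NEU1 (sialic acid) were lower, with log2 differences of -1.12, -1.44, -0.72, -1.29 and -0.85. The sphingomyelinase SMPD1, the ceramidase ASAH1 and PSAP, precursor of the saposins that present sphingolipids to their enzymes, were lower, with -2.35, -1.47 and -1.69. PSAP was the most abundant of the 37 genes in both lines, with 702 ± 111 and 214 ± 2.30 FPKM. The cholesteryl ester hydrolase LIPA was at 50.03, 49.9 and 55.1 FPKM in HPNE and 55.4, 51.6 and 47.9 FPKM in HPDE, with overlapping libraries. Of the sulfatases, SGSH was lower in HPDE (5.74 ± 0.00582 against 10.6 ± 1.19 FPKM) and IDS did not pass the test (17.7 ± 0.734 and 19.8 ± 2.29 FPKM).

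The proton pump was the role with no common direction. ATP6V1A, ATP6V1B2 and ATP6V1D of the ATP-hydrolysing V1 sector were higher in HPDE by 0.51, 0.43 and 0.84, and ATP6V0D1 and ATP6V0E1 of the membrane V0 sector were lower (-0.43 and -1.16). ATP6V1C1, ATP6V1H and the accessory subunit ATP6AP1 did not pass the test. With size factors those 3 were called lower (-0.28, -0.21 and -0.30), the calls of ATP6V1B2 and of the glycosidase GLA were lost, and the median of the pump turned from 0.10 to -0.25. TFEB was at 3.81, 4.24 and 4.66 FPKM in HPNE and 1.43, 1.90 and 1.39 FPKM in HPDE, a fold of 0.372.

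**Figure D2:**
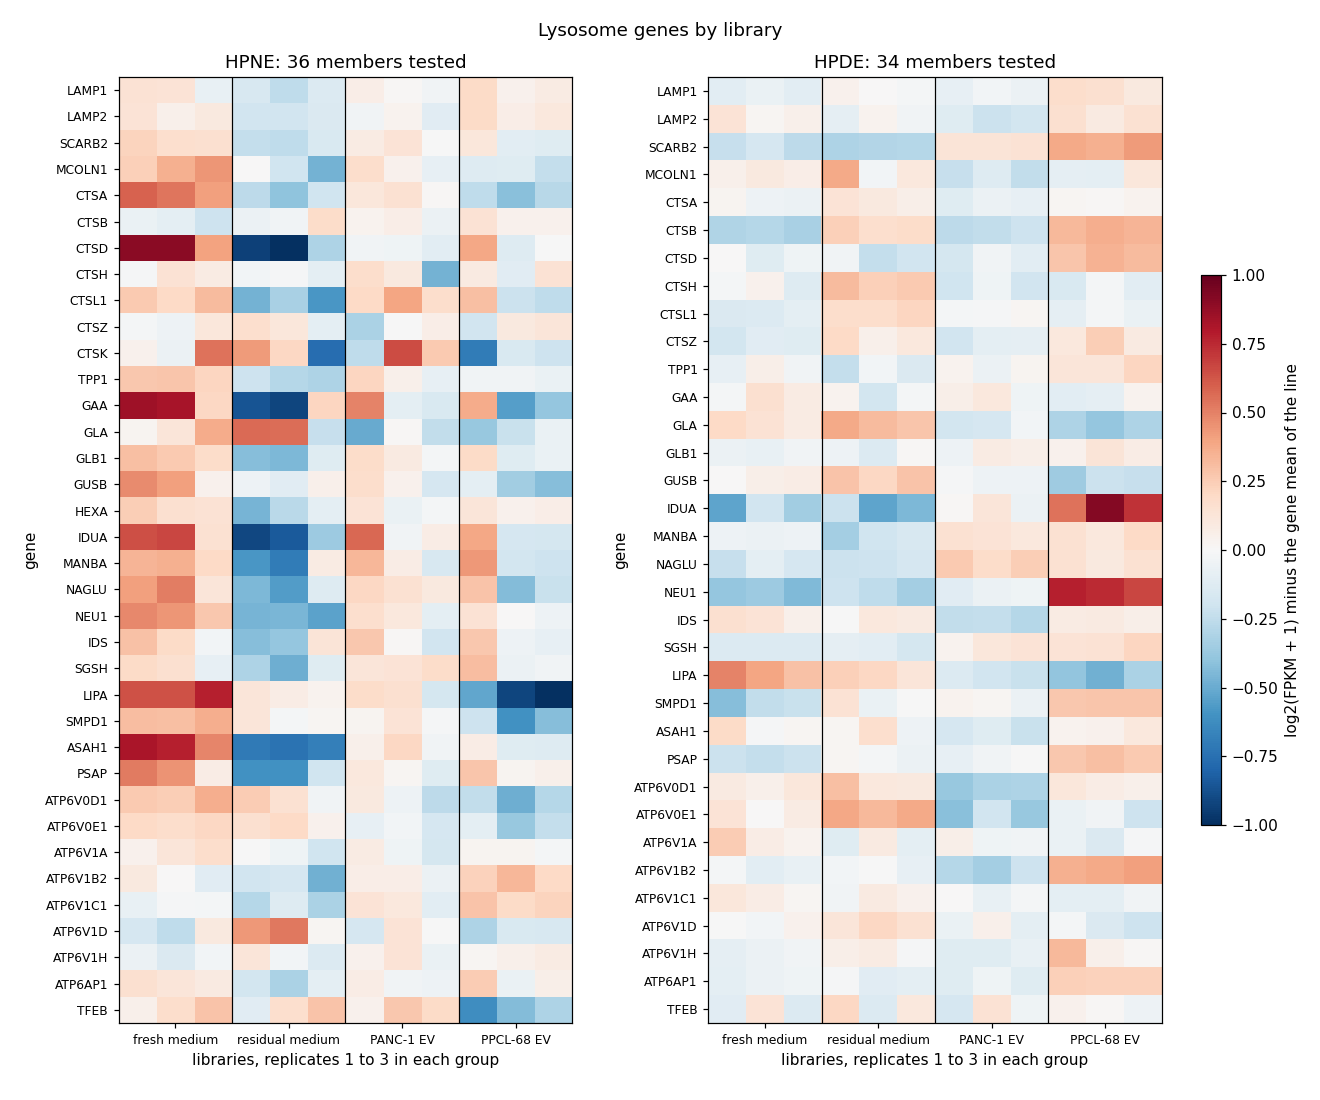
Each row is a lysosome gene and each column a library; colour gives log2(FPKM + 1) minus the mean of that gene over the 12 libraries of the line, with the colour scale ending at 1 in either direction. In HPNE most rows are red in fresh medium and blue in residual medium; in HPDE the red block of NEU1, IDUA and SCARB2 sits in the PPCL-68 columns.

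In HPNE the largest shift of the lysosome genes separated the control media. With residual medium 22 of 36 genes fell and 1 rose relative to fresh medium, against 25.2% lower, 18.7% higher and 43.9% called among all 11503 genes. The median difference was -0.36 for the lysosome genes and -0.05 for all genes. Size factors moved the median of all genes to 0.06, and 16 lysosome genes were then lower and 2 higher, with 18.1% of all genes lower and 28.9% higher. Relative to all genes the median was -0.31 as deposited and -0.30 with size factors. By role, 16 of 23 hydrolases and activator fell (median -0.58), as did 4 of 4 membrane proteins (median -0.33) and 2 of 8 pump subunits (median -0.18), while 1 pump subunit rose. The number called was 14 without fresh-medium replicate 1 and 15 without fresh-medium replicate 2, where 27.4% and 26.5% of all genes were called. It was 28 (24 lower, 4 higher) without the 4 libraries that stood apart, where 36.2% of all genes were lower, 35.4% higher and 71.7% called.

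CTSD showed the largest fall. Its libraries held 347, 346 and 245 FPKM in fresh medium and 96.5, 89.4 and 149 FPKM in residual medium. Every residual library was below every fresh one, and the libraries that stood apart (replicate 3 of each) were the nearest to each other. The log2 difference was -1.50 ± 0.21 (adjusted p = 0.00045). ASAH1, which cleaves ceramide, went from 85.9, 83.7 and 68.5 to 29.4, 28.7 and 29.7 FPKM, with residual libraries within 1 FPKM of each other (-1.40 ± 0.10, adjusted p = 9.8e-06). IDUA held 16.5, 16.8 and 11.5 FPKM in fresh medium and 4.98, 5.27 and 7.73 FPKM in residual medium, and NEU1 held 18.97, 18.4 and 16.3 against 9.37, 9.45 and 8.90 FPKM. Neither overlapped between media, and their differences were -1.19 ± 0.22 (adjusted p = 0.0022) and -0.88 ± 0.09 (adjusted p = 8.8e-05).

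PSAP fell from 783, 747 and 576 to 359, 358 and 476 FPKM, without overlap. CTSA, which protects NEU1 and GLB1 in a complex, fell from 176, 169 and 155 to 96.8, 87.6 and 101 FPKM, and CTSL1 from 139, 133 and 145 to 82.96, 92.05 and 77.1 FPKM. The log2 differences of the 3 genes lay between -0.82 and -0.72. CTSA lies at chr20:44519591-44527459 (hg19, plus strand) and overlaps PLTP on the opposite strand, and the library kit kept no strand. PLTP averaged 50.4 FPKM in fresh and 14.6 FPKM in residual medium, and its part in the CTSA value was not tested. GAA held 51.8, 50.8 and 32.9 FPKM in fresh and 15.1, 14.5 and 33.05 FPKM in residual medium, and replicate 3 of the media had nearly equal levels. Its difference of -1.15 ± 0.33 (adjusted p = 0.018) lost its call without replicate 1 or 2 of fresh or of residual medium, at -1.04 and -1.05, and at -0.98 and -0.95.

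The other glycosidases that fell were GLB1 (-0.58), HEXA (-0.46), MANBA (-0.70) and NAGLU (-0.73). TPP1 (-0.52), SGSH (-0.40), LIPA (-0.61) and SMPD1 (-0.28) fell as well. SGSH overlaps SLC26A11 on the opposite strand, which averaged 5.79 FPKM in fresh and 3.32 FPKM in residual medium. With PANC-1 and PPCL-68 vesicles SLC26A11 averaged 6.67 and 6.46 FPKM in HPNE. On the same strand CTSD overlaps AC068580.5, MCOLN1 overlaps PNPLA6 and CTSB overlaps RP11-589N15.2. In HPNE AC068580.5 averaged 8.87 FPKM in fresh medium, 0.758 in residual medium, 3.48 with PANC-1 and 7.58 with PPCL-68 vesicles. In the same order PNPLA6 averaged 24.1, 19.99, 19.3 and 16.2 FPKM, and RP11-589N15.2 3.65, 3.55, 3.35 and 2.27 FPKM. PNPLA6 in HPDE averaged 18.9 FPKM in residual medium, 11.6 with PANC-1 and 15.1 with PPCL-68 vesicles. The part of these overlapping genes in the values was not tested. HEXA was near the lower limit of the test throughout, at 0.833 to 2.01 FPKM. Among the membrane proteins MCOLN1 fell from 12.4, 13.6 and 14.5 to 10.4, 8.94 and 7.21 FPKM, SCARB2 from 88.3, 85.2 and 84.7 to 63.8, 63.3 and 68.004 FPKM, and LAMP1 and LAMP2 by 0.25 and 0.27. The calls of LAMP1 and LAMP2 were lost with size factors (-0.13 and -0.14).

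Of the pump subunits ATP6AP1 fell by 0.32 and ATP6V1B2 by 0.28, and both calls were lost with size factors (-0.20 and -0.16). ATP6V1D was the member that rose, from 29.4, 27.7 and 35.7 to 45.3, 48.2 and 33.6 FPKM, with overlapping libraries (0.43 ± 0.14, adjusted p = 0.028). Its call was lost without replicate 1 or 2 of either medium (0.40 and 0.36 for fresh, 0.38 and 0.34 for residual). The gene overlaps EIF2S1 on the opposite strand, which averaged 19.7 FPKM in fresh and 29.5 FPKM in residual medium; its part in the value was not tested. CTSB (0.15), CTSZ (0.05), CTSH (-0.12), GLA (0.12), GUSB (-0.35), IDS (-0.38), CTSK (-0.22), ATP6V0D1 (-0.17), ATP6V0E1 (-0.06), ATP6V1A (-0.19), ATP6V1C1 (-0.21), ATP6V1H (0.07) and TFEB (-0.06) did not pass the test. Of the 7 genes whose promoter stretches are printed with the core, 6 fell (all but ATP6V0D1), as did 8 of 15 tested genes whose promoter entries lack it and 8 of 14 with no entry; these shares were not tested against each other. The calls of CTSA, MCOLN1, ASAH1, LIPA, NAGLU, CTSD, IDUA, CTSL1, SCARB2, TPP1, GLB1, PSAP, NEU1 and HEXA (14 of 23) were made under every alternative tried.

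**Figure D3:**
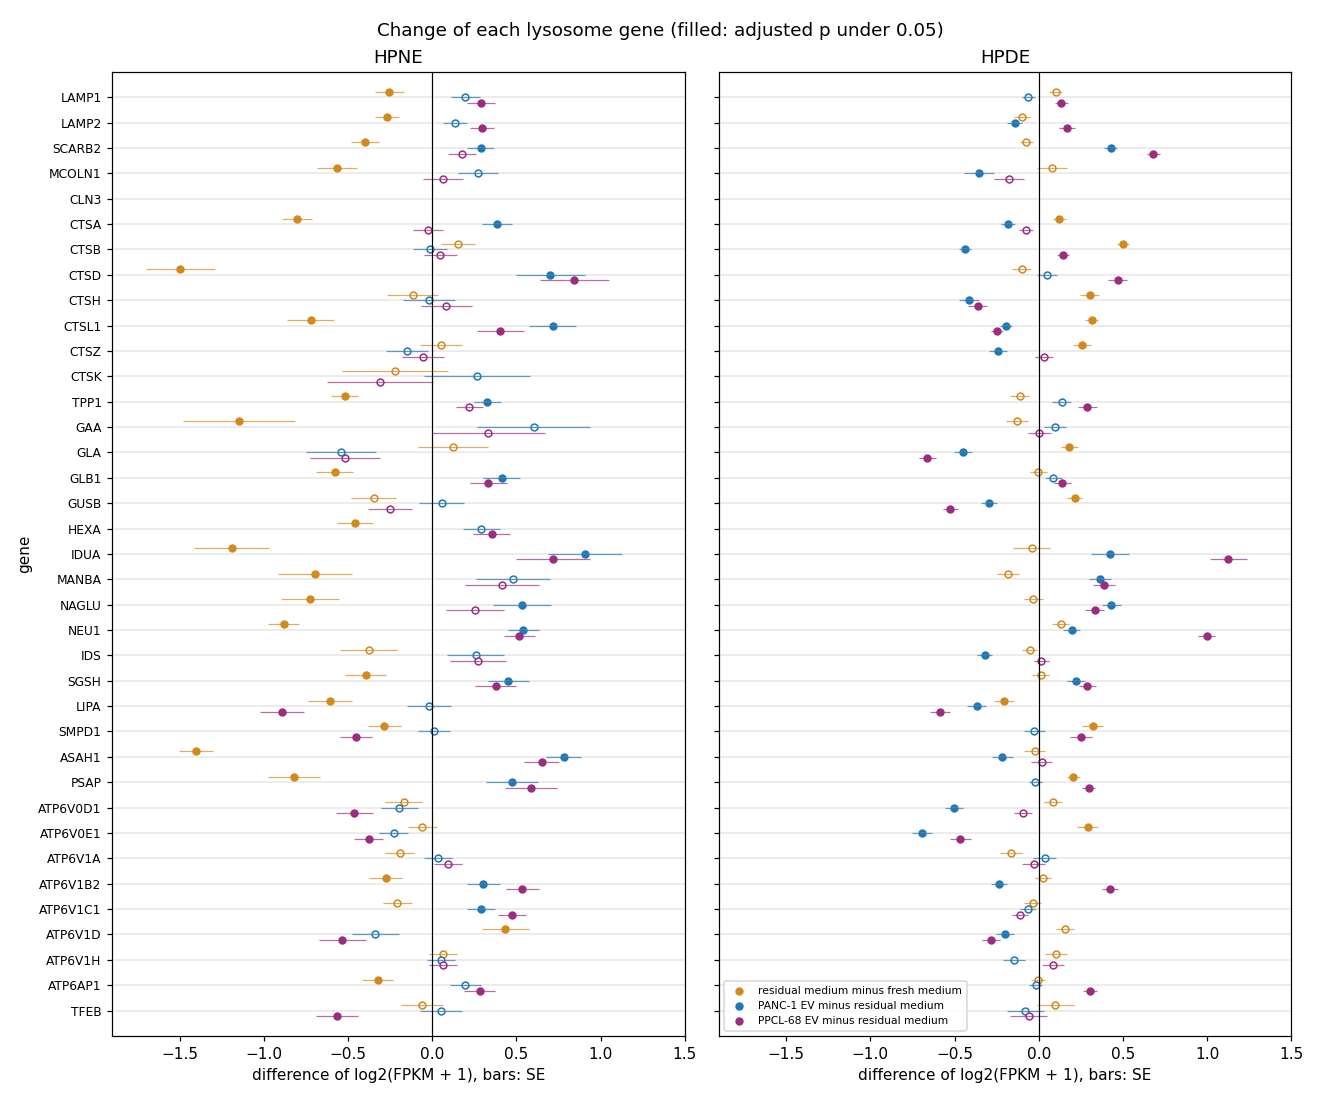
Difference of log2(FPKM + 1) for each lysosome gene, with bars for the SE, in HPNE (left) and HPDE (right); orange is residual minus fresh medium, blue PANC-1 vesicles minus residual medium, purple PPCL-68 vesicles minus residual medium, and filled points have an adjusted p under 0.05. In HPNE orange points lie mostly left of 0 and blue and purple points mostly right of it, while in HPDE they spread to both sides.

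Vesicles were compared with residual medium, the control that shares their preparation. In HPNE, PANC-1 vesicles raised 14 of 36 lysosome genes and lowered 0, where 13.9% of all genes rose, 10.3% fell and 24.2% were called. By role these were 11 of 23 hydrolases and activator (median 0.38), 1 of 4 membrane proteins and 2 of 8 pump subunits (median 0.04). The median over the lysosome genes was 0.27 and over all genes 0.02. At an unadjusted p under 0.05 limma counted 17 higher and 3 lower, for which the share of all genes was not counted. Voom on the recovered reads called 15 higher and 0 lower, where 14.7% of all genes were higher and 10.7% lower. With size factors the split was 11 higher and 2 lower, with 11.7% of all genes higher and 16.1% lower. The count was 7, 6 and 9 without PANC-1 replicates 1, 2 and 3, where 19.0%, 14.5% and 16.2% of all genes were called. It was 5 and 4 without residual replicates 1 and 2 (11.7% and 12% of all genes). It was 25 (21 higher, 4 lower) without the 4 libraries that stood apart, where 28.2% of all genes were higher, 30.8% lower and 58.9% called.

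IDUA held 4.98, 5.27 and 7.73 FPKM in residual medium and 15.7, 9.95 and 10.8 FPKM with PANC-1 vesicles. ASAH1 held 29.4, 28.7 and 29.7 against 50.2, 56.1 and 47.1 FPKM, and CTSL1 held 82.96, 92.05 and 77.1 against 133, 152 and 131 FPKM. In each case all 3 vesicle libraries lay above all 3 residual ones. The differences were 0.91 ± 0.22 (adjusted p = 0.014), 0.78 ± 0.10 (adjusted p = 0.00076) and 0.72 ± 0.14 (adjusted p = 0.0053). NEU1 rose from 9.37, 9.45 and 8.90 to 15.1, 14.4 and 12.4 FPKM (0.54 ± 0.09, adjusted p = 0.0027). ASAH1, CTSL1 and NEU1 were the 3 of 14 calls made under every alternative, and the IDUA call was lost without residual replicate 1 (0.81) or 2 (0.84).

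CTSD stood at 181, 179 and 172 FPKM with PANC-1 vesicles, above all residual libraries (0.70 ± 0.21, adjusted p = 0.031). Its call was lost without any of the 3 PANC-1 libraries (0.69, 0.69 and 0.72) and without residual replicate 1 (0.62) or 2 (0.56). PSAP rose from 359, 358 and 476 to 589, 553 and 503 FPKM and NAGLU from 14.4, 13.2 and 18.2 to 23.3, 22.4 and 21.5 FPKM, with adjusted p of 0.048 and 0.046. Both calls were lost without any of the 3 PANC-1 libraries and without residual replicate 1 or 2 (0.41 to 0.53 for PSAP and 0.44 to 0.56 for NAGLU). CTSA (0.38), TPP1 (0.33), GLB1 (0.41), SGSH (0.45), SCARB2 (0.29), ATP6V1B2 (0.30) and ATP6V1C1 (0.29) completed the rises. Each of these 7 lost its call without at least 1 library. SMPD1 (0.01), LIPA (-0.02), CTSB (-0.01) and TFEB (0.05) had differences near 0.

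PPCL-68 vesicles raised 14 and lowered 6 of the 36 genes in HPNE, where 20.3% of all genes rose, 19.7% fell and 39.9% were called. By role, 9 of 23 hydrolases and activator were higher and 2 lower, 2 of 4 membrane proteins were higher, and the 8 pump subunits split into 3 higher and 3 lower. The count was 12 without residual replicate 1 or 2 (26.9% and 28.1% of all genes called) and 13 without PPCL-68 replicate 1 (35.6%). It was 27 (18 higher, 9 lower) without the 4 libraries that stood apart, where 28.2% of all genes were higher, 37.3% lower and 65.5% called. CTSD rose to 242, 169 and 184 FPKM, ASAH1 to 51.1, 44.6 and 44.2 FPKM and PSAP to 661, 558 and 564 FPKM, all above the residual libraries given before. Their differences were 0.84 ± 0.21 (adjusted p = 0.0081), 0.65 ± 0.10 (adjusted p = 0.00082) and 0.59 ± 0.16 (adjusted p = 0.013); the PSAP call was lost without residual replicate 1 or 2 (0.52 in both). NEU1 rose by 0.52, IDUA by 0.72, CTSL1 by 0.40, SGSH by 0.38, HEXA by 0.35, GLB1 by 0.33, LAMP2 by 0.30 and LAMP1 by 0.29. Of these 8, NEU1 and LAMP2 were called under every alternative.

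Falls with PPCL-68 vesicles in HPNE included both lipid hydrolases that act on cholesteryl esters and sphingomyelin. LIPA went from 34.6, 33.5 and 32.6 FPKM in residual medium to 21.8, 16.4 and 15.3 FPKM, and SMPD1 from 47.8, 43.4 and 44.7 to 37.9, 28.7 and 32.5 FPKM. All vesicle libraries lay below all residual ones for either gene, with differences of -0.89 ± 0.13 (adjusted p = 0.00053) and -0.45 ± 0.10 (adjusted p = 0.0043). LIPA lies at chr10:90973326-91174314 (hg19, minus strand), and its span contains IFIT1, IFIT2 and IFIT3 on the opposite strand. In residual medium and with PPCL-68 vesicles IFIT1 averaged 3.73 and 3.48 FPKM, IFIT2 1.61 and 2.99 FPKM, and IFIT3 14.7 and 29.5 FPKM, and their part in the LIPA value was not tested. TFEB fell from 3.28, 4.201 and 4.66 to 2.02, 2.44 and 2.74 FPKM (-0.57 ± 0.12, adjusted p = 0.0050).

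Within the pump, ATP6V1B2 rose from 10.97, 11.2 and 8.77 to 15.03, 16.2 and 14.7 FPKM and ATP6V1C1 from 11.2, 12.7 and 10.99 to 17.2, 15.99 and 16.4 FPKM. ATP6AP1 rose by 0.28, a call lost without residual replicate 1 (0.29) or 2 (0.22) or PPCL-68 replicate 1 (0.20) or 3 (0.29). In the opposite direction, ATP6V0E1 fell from 86.3, 88.8 and 79.6 to 71.9, 58.9 and 65.2 FPKM, ATP6V0D1 from 29.9, 27.8 and 24.3 to 20.9, 17.5 and 20.2 FPKM, and ATP6V1D by 0.53. Of 7 further pump subunits tested, 4 were higher and 0 lower, where 20.3% of all genes were higher and 19.7% lower. The ATP6V1D call was lost without residual replicate 2 (-0.43). ATP6V1A (0.09) and ATP6V1H (0.06) did not pass the test.

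The direct comparison of the vesicle sources in HPNE called 4 lysosome genes lower with PPCL-68 and 0 higher. Among all genes 3.22% were lower, 2.25% higher and 5.47% called. Voom gave 4 and 0, and limma at an unadjusted p under 0.05 gave 7 and 3, for which the share of all genes was not counted. The 4 genes called by limma were LIPA (-0.87 ± 0.13), CTSA, SMPD1 and TFEB. LIPA held 36.3, 35.6 and 27.9 FPKM with PANC-1 vesicles and 21.8, 16.4 and 15.3 FPKM with PPCL-68 vesicles, and was called under every alternative (adjusted p = 0.0053). CTSA held 126, 129 and 117 against 97.4, 86.98 and 95.9 FPKM, and TFEB held 3.76, 4.58 and 4.30 against 2.02, 2.44 and 2.74 FPKM. In none of the 4 genes did the libraries of the sources overlap. The count was 2 without PANC-1 replicate 1 or PPCL-68 replicate 3 (2.57% and 1.38% of all genes called), and 1 without PANC-1 replicate 2 or PPCL-68 replicate 2 (1.30% and 1.17%). It was 16 (15 lower, 1 higher) without the 4 libraries that stood apart, where 22.6% of all genes were lower, 13.8% higher and 36.4% called.

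Set against fresh medium, the vesicle groups of HPNE lay below the fresh control more often than above it. With PANC-1 vesicles limma called 7 genes lower and 0 higher (11.5% and 9.61% of all genes, 21.1% called), as did voom. At an unadjusted p under 0.05 limma gave 12 and 0, for which the share of all genes was not counted. With PPCL-68 vesicles 14 were lower and 1 higher (23.8% and 18.7%, 42.5% called). The latter split was 12 lower and 4 higher with size factors (20% and 24.6% of all genes). The fresh and residual controls are shared by these comparisons, so each is given by its own values. CTSD, for example, was -0.80 ± 0.21 with PANC-1 and -0.65 ± 0.21 with PPCL-68 vesicles relative to fresh medium, and ASAH1 was -0.62 ± 0.10 and -0.75 ± 0.10. LIPA was -0.63 ± 0.13 and -1.50 ± 0.13. The PANC-1 count was 3 without fresh-medium replicate 1 or 2 (10.4% and 9.45% of all genes called) or PANC-1 replicate 2 or 3 (10.6% and 9.09%). It was 23 without the 4 libraries that stood apart (62.7% of all genes), and the PPCL-68 count without them was 27 (69.5%).

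**Figure D4:**
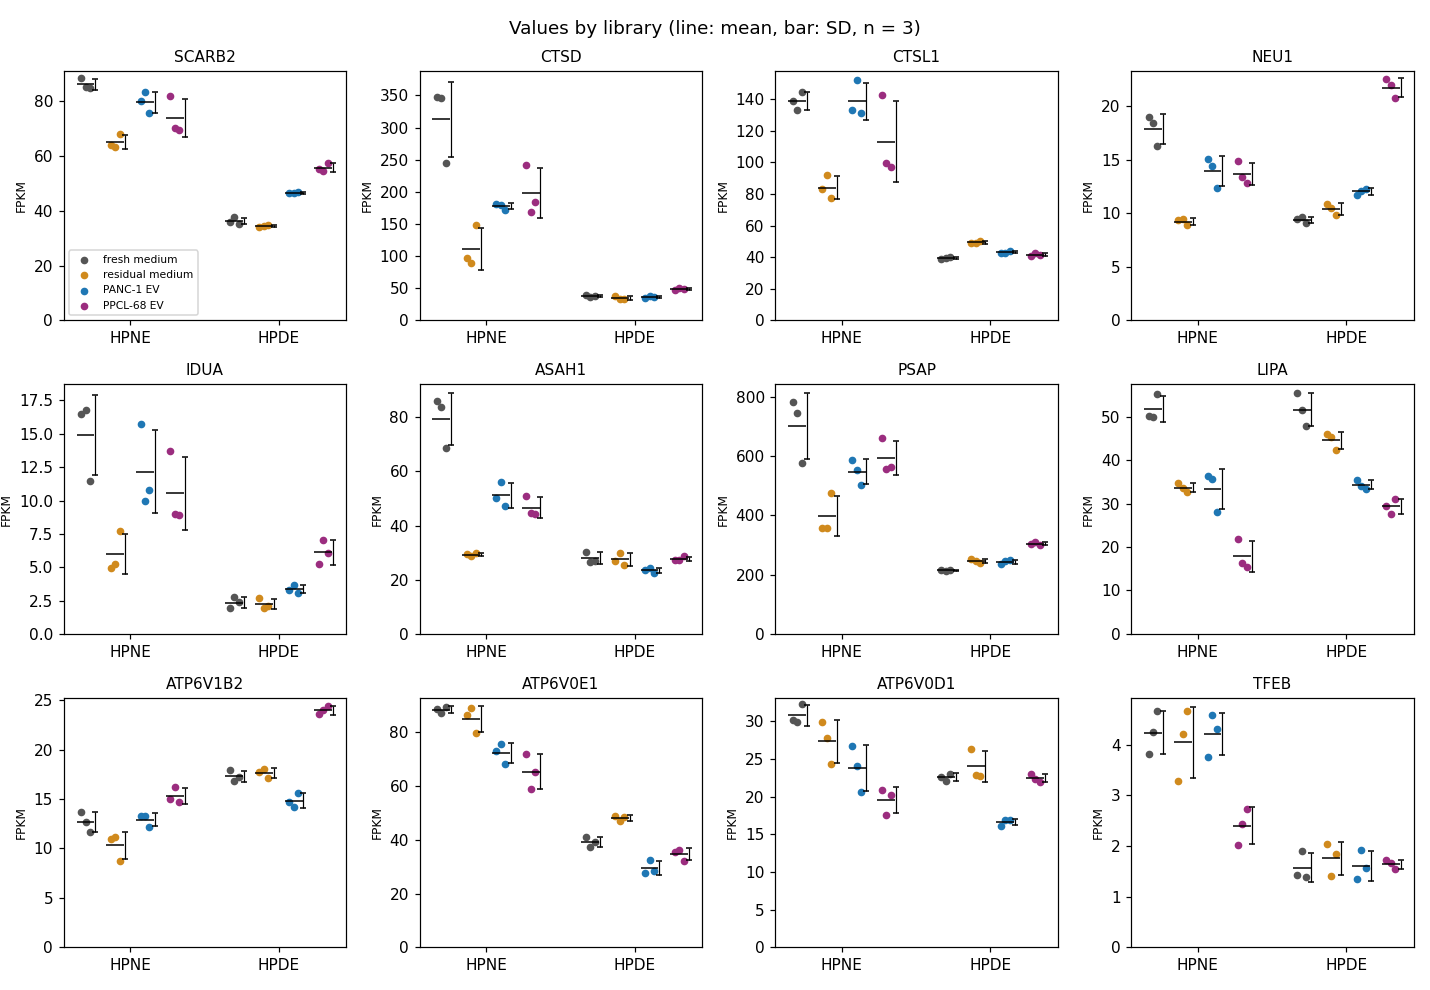
FPKM of 12 lysosome genes in every library of HPNE and HPDE, coloured by medium, with a line for the mean and a bar for the SD of 3 libraries; the vertical axes start at 0. SCARB2, NEU1 and IDUA are highest with PPCL-68 vesicles in HPDE, whereas in HPNE CTSD, ASAH1 and PSAP are highest in fresh medium.

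HPDE libraries lay closer together, and smaller differences passed the test. Residual medium raised 10 of 34 lysosome genes and lowered 1 relative to fresh medium, against 9.93% higher, 10.1% lower and 20% called among all 12223 genes. The median was 0.05 for the lysosome genes and -0.01 for all genes. Proteases made up 5 of the 10 rises. CTSB rose from 47.3, 48.02 and 46.7 to 69.5, 66.1 and 66.7 FPKM (0.50 ± 0.04, adjusted p = 3.2e-07), and CTSL1 from 39.1, 39.4 and 40.3 to 48.9, 48.95 and 50.5 FPKM (0.31 ± 0.04). CTSH, CTSZ and CTSA rose by 0.30, 0.26 and 0.12. SMPD1 (0.32), PSAP (0.21), GUSB (0.21), GLA (0.18) and ATP6V0E1 (0.29) also rose, and LIPA fell from 55.4, 51.6 and 47.9 to 46.04, 45.2 and 42.4 FPKM (-0.21 ± 0.06). CTSD (-0.10), ASAH1 (-0.02) and IDUA (-0.04), the leading falls in HPNE, did not pass the test in HPDE. The calls of CTSA, GLA and LIPA were each lost without at least 1 library.

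PANC-1 vesicles in HPDE lowered 16 of 34 lysosome genes and raised 6 relative to residual medium, where 35.1% of all genes fell, 28.2% rose and 63.3% were called. The share of lysosome genes called was thus near that of all genes. All 4 called pump subunits fell. ATP6V0E1 went from 48.8, 46.8 and 48.5 to 27.5, 32.4 and 28.4 FPKM (-0.69 ± 0.06, adjusted p = 2.8e-07) and ATP6V0D1 from 26.3, 22.9 and 22.7 to 16.1, 16.8 and 16.9 FPKM (-0.50 ± 0.05). ATP6V1B2 and ATP6V1D fell by 0.24 and 0.20. Of 7 proteases tested 5 fell, led by CTSB, which went from 69.5, 66.1 and 66.7 to 48.7, 49.2 and 50.6 FPKM (-0.44 ± 0.04), close to its level in fresh medium. CTSH fell by 0.41, CTSZ by 0.24, CTSL1 by 0.19 and CTSA by 0.18.

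The rises with PANC-1 vesicles in HPDE were SCARB2, 4 glycosidases and SGSH. SCARB2 held 34.02, 34.4 and 34.7 FPKM in residual medium and 46.4, 46.4 and 46.9 FPKM with vesicles (0.43 ± 0.04, adjusted p = 3.3e-07). NAGLU held 4.08, 4.11 and 4.25 against 6.10, 5.72 and 6.004 FPKM, and IDUA 2.68, 1.96 and 2.12 against 3.31, 3.65 and 3.09 FPKM. These genes did not overlap between the groups. NAGLU, IDUA, MANBA, SGSH and NEU1 rose by 0.43, 0.42, 0.37, 0.22 and 0.19. The iduronate sulfatase IDS fell from 16.2, 17.5 and 17.3 to 13.5, 13.6 and 13.1 FPKM (-0.32 ± 0.05). GLA (-0.45), GUSB (-0.29), LIPA (-0.37), ASAH1 (-0.22), MCOLN1 (-0.36) and LAMP2 (-0.14) fell too. The LAMP2 call was lost without at least 1 library, and the other 21 calls were made under every alternative.

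PPCL-68 vesicles in HPDE raised 16 of 34 genes and lowered 7 relative to residual medium, where 31.3% of all genes rose, 36.4% fell and 67.7% were called. The median difference was 0.06 for the lysosome genes and -0.03 for all genes. NEU1, the lysosomal sialidase, held 10.9, 10.5 and 9.84 FPKM in residual medium and 22.5, 21.98 and 20.8 FPKM with vesicles, a fold of 2.09 (1.00 ± 0.05, adjusted p = 4.7e-10). IDUA held 2.68, 1.96 and 2.12 against 5.22, 7.07 and 6.05 FPKM (1.13 ± 0.11), and SCARB2 held 34.02, 34.4 and 34.7 against 55.3, 54.4 and 57.5 FPKM (0.68 ± 0.04). Every vesicle library lay above every residual one for these 3 genes. NEU1 lies at chr6:31825436-31830683 (hg19, minus strand) and IDUA at chr4:980785-998316 (hg19, plus strand), where it overlaps SLC26A1 on the opposite strand (0.874 FPKM in residual medium and 1.19 FPKM with vesicles).

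CTSD rose from 38.04, 32.9 and 34.005 to 47.5, 49.9 and 48.7 FPKM (0.47 ± 0.06), PSAP from 254, 247 and 241 to 303, 309 and 299.98 FPKM (0.30 ± 0.04) and ATP6V1B2 from 17.8, 18.1 and 17.1 to 23.5, 23.96 and 24.4 FPKM (0.42 ± 0.05). Smaller rises were those of MANBA (0.39), NAGLU (0.33), ATP6AP1 (0.31), SGSH (0.29), TPP1 (0.29), SMPD1 (0.25), LAMP2 (0.17), CTSB (0.14), GLB1 (0.14) and LAMP1 (0.13). Except for GLB1, whose call was lost without at least 1 library, these calls were made under every alternative. The falls were GLA, LIPA, GUSB, ATP6V0E1, CTSH, ATP6V1D and CTSL1. GLA went from 28.6, 27.4 and 26.5 to 17.4, 16.4 and 17.3 FPKM (-0.66 ± 0.05), LIPA from 46.04, 45.2 and 42.4 to 29.4, 27.6 and 31.1 FPKM (-0.59 ± 0.06) and GUSB from 21.996, 20.8 and 21.99 to 13.8, 15.3 and 15.1 FPKM (-0.52 ± 0.05). Within the LIPA span, IFIT1 averaged 258, 268 and 131 FPKM in residual medium, with PANC-1 and with PPCL-68 vesicles, IFIT2 80.9, 177 and 93.02 FPKM, and IFIT3 296, 508 and 277 FPKM. Their part in the LIPA value was not tested.

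In HPDE the vesicle sources were also compared directly. With PPCL-68 instead of PANC-1 vesicles 19 of 34 genes were higher and 3 lower, against 24.9% higher, 25.2% lower and 50.1% called among all genes. The median was 0.19 for the lysosome genes and 0.00 for all genes. NEU1 (0.80 ± 0.05), IDUA (0.70 ± 0.11), ATP6V1B2 (0.66 ± 0.05) and CTSB (0.58 ± 0.04) differed most. ATP6V1B2 held 14.7, 14.1 and 15.6 FPKM with PANC-1 and 23.5, 23.96 and 24.4 FPKM with PPCL-68 vesicles, with residual medium between them at 17.8, 18.1 and 17.1 FPKM. By role the higher calls were 5 of 8 pump subunits, 5 of 7 proteases, 3 of 4 membrane proteins, 3 of 4 lipid hydrolases and activator, 2 of 8 glycosidases and IDS. GLA (-0.21), GUSB (-0.23) and LIPA (-0.22) were lower. TFEB did not pass the test in any comparison within HPDE, and its 12 libraries lay between 1.35 and 2.04 FPKM.

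Relative to fresh medium, 9 genes were higher and 9 lower with PANC-1 vesicles in HPDE (26.3% and 34.4% of all genes, 60.6% called). With PPCL-68 vesicles 17 were higher and 7 lower (30.1% and 36.1%, 66.3% called), a split that became 18 higher and 3 lower with size factors (33.3% and 32.3% of all genes). NEU1 stood 0.32 and 1.13 above fresh medium with PANC-1 and PPCL-68 vesicles, IDUA 0.38 and 1.08, and SCARB2 0.35 and 0.61. LIPA stood below it in both, at -0.57 and -0.79. CTSB was 0.06 with PANC-1 vesicles, which did not pass the test (adjusted p = 0.15), and 0.65 with PPCL-68 vesicles.

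**Figure D5:**
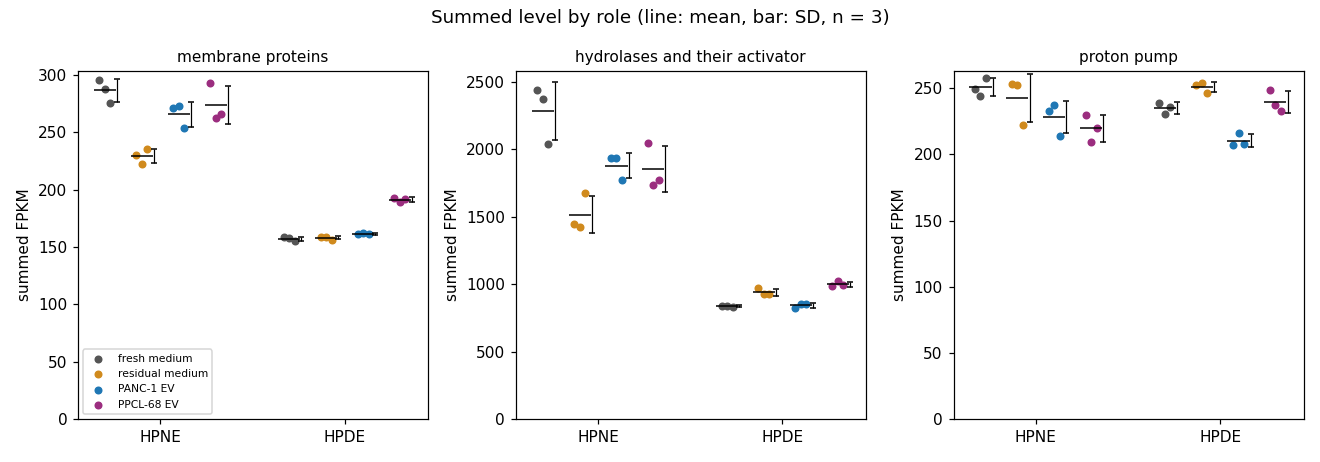
Summed FPKM of the membrane proteins, of the hydrolases and their activator and of the proton pump in every library, coloured by medium, with a line for the mean and a bar for the SD of 3 libraries; the vertical axes start at 0. Hydrolase sums in HPNE are highest in fresh medium and lowest in residual medium, while pump sums vary less.

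Summed levels give the weight of each role in the mRNA pool, in which abundant genes count most. In HPNE the hydrolases and activator summed to 2284 ± 213 FPKM in fresh medium, 1515 ± 137 in residual medium, 1879 ± 95.4 with PANC-1 vesicles and 1852 ± 169 with PPCL-68 vesicles (SD, n = 3). The membrane proteins followed the same order of controls, at 286 ± 10.1 and 229 ± 6.42 FPKM. The pump summed to 250.5 ± 6.80, 242 ± 17.8, 228 ± 12.1 and 219.6 ± 10.1 FPKM in the same groups. In HPDE the hydrolase sums were 838 ± 5.79, 943 ± 25.9, 847 ± 18.1 and 999.8 ± 20.2 FPKM, and the pump sums 235 ± 4.50, 251 ± 3.70, 210.4 ± 5.12 and 239 ± 8.11 FPKM. The lowest pump sum in HPDE was that with PANC-1 vesicles, whose 3 libraries lay below all other HPDE libraries. PSAP, CTSB and CTSD carry most of the hydrolase sum in HPNE, so these sums describe few genes.

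Whether the lines responded differently was tested by the interaction of line and medium over all 24 libraries. That fit uses a common spread per gene for both lines, although HPNE libraries lay farther apart than HPDE ones. Its p-values carry this limit. For residual against fresh medium the difference (HPDE minus HPNE) was positive for 24 of 36 lysosome genes and negative for 0. Among all 12377 genes 21.0% were positive, 17.1% negative and 38.1% called. Voom gave 23 and 0, and limma at an unadjusted p under 0.05 gave 26 and 0, for which the share of all genes was not counted. The median difference was 0.38 for the lysosome genes and 0.03 for all genes, and 18 of the 24 were hydrolases or their activator. CTSD had the largest value (1.40 ± 0.22, adjusted p = 0.00012), ahead of ASAH1 (1.38 ± 0.12) and IDUA (1.15 ± 0.26). For PANC-1 vesicles against residual medium 14 genes were negative and 0 positive, with 12.5% and 8.65% of all genes and 21.2% called. Voom gave the same counts, and limma at an unadjusted p under 0.05 gave 20 and 0, for which the share of all genes was not counted. The 14 were led by ASAH1 (-1.0 ± 0.12) and CTSL1 (-0.91 ± 0.14). For PPCL-68 vesicles 5 were positive and 3 negative (12.1% and 13.6%, 25.7% called). The 5 were SMPD1, SCARB2, TFEB, NEU1 and ATP6V0D1, and the 3 were CTSL1, ASAH1 and ATP6V1C1. Without residual replicate 3 of HPNE the PPCL-68 count was 14, where 35.5% of all genes were called.

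A further 71 genes of the lysosome, of delivery to it and of its control gave a wider view. In HPNE residual medium lowered 28 of the 66 tested and raised 4 relative to fresh medium, with 25.2% of all genes lower and 18.7% higher. Against residual medium PANC-1 vesicles raised 17 and lowered 3 (13.9% and 10.3% of all genes), and PPCL-68 vesicles raised 23 and lowered 8 (20.3% and 19.7%). In HPDE, of 69 tested, 6 were higher and 5 lower with residual medium (9.93% and 10.1% of all genes). The counts there were 20 higher and 22 lower for PANC-1 vesicles (28.2% and 35.1%), and 30 and 13 for PPCL-68 vesicles (31.3% and 36.4%). The chloride-proton exchanger CLCN7 held 8.83 ± 0.993 FPKM in residual medium, 19.4 ± 2.42 FPKM with PANC-1 vesicles (1.05 ± 0.13, adjusted p = 0.00056) and 20.1 ± 2.19 FPKM with PPCL-68 vesicles in HPNE (1.10 ± 0.13). Its level in fresh medium was 22.1 ± 3.06 FPKM in HPNE, so residual medium was the lowest group (-1.23 ± 0.13 for residual minus fresh medium). FLCN, a regulator of Rag GTPases at the lysosome that is listed in 2 rows and given here by the expressed one, held 18.1 ± 4.40 FPKM in fresh medium, 6.19 ± 0.824 FPKM in residual medium and 14.6 ± 1.44 FPKM with PANC-1 vesicles in HPNE. With PPCL-68 vesicles FLCN held 13.5 ± 2.83 FPKM there. In HPDE both CLCN7 (0.48 and 0.46) and FLCN (0.23 and 0.44) rose with PANC-1 and PPCL-68 vesicles.

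IGF2R, the receptor that brings mannose 6-phosphate tagged hydrolases to the lysosome, rose with both kinds of vesicles in both lines. It held 25.4 ± 1.22 FPKM in residual medium, 58.9 ± 6.35 FPKM with PANC-1 vesicles and 74.4 ± 3.23 FPKM with PPCL-68 vesicles in HPDE (1.17 ± 0.07 and 1.51 ± 0.07). In HPNE it held 63.4 ± 5.33 FPKM in residual medium, 92.5 ± 14.3 FPKM with PANC-1 vesicles (0.53 ± 0.14, adjusted p = 0.022) and 147 ± 19.7 FPKM with PPCL-68 vesicles (1.19 ± 0.14). SORT1, another sorting receptor, fell from 11.7 ± 0.771 to 6.63 ± 0.977 FPKM with PANC-1 vesicles in HPNE, and to 6.77 ± 0.645 FPKM with PPCL-68 vesicles. These levels were near the 6.52 ± 1.59 FPKM of fresh medium, above which residual medium had raised SORT1 (0.77 ± 0.14). In HPDE SORT1 fell with PANC-1 vesicles (-0.35) but did not pass the test with PPCL-68 vesicles (-0.04). The protease CTSS rose with residual medium in both lines, reaching 7.20 ± 1.91 FPKM from 1.71 ± 0.173 in HPNE (1.57 ± 0.18) and 3.05 ± 0.118 FPKM from 1.75 ± 0.397 in HPDE (0.57 ± 0.09). The protease CTSF fell from 47.9 ± 9.97 to 18.7 ± 8.61 FPKM with residual medium in HPNE, and CTSO rose from 7.66 ± 4.02 to 16.2 ± 4.51 FPKM with PPCL-68 vesicles. With PANC-1 vesicles in HPNE the difference of CTSO (0.75) did not pass the test. Fresh medium gave 14.4 ± 2.62 FPKM of CTSO in HPNE, more than residual medium (-0.91 ± 0.28 for residual minus fresh medium). In HPDE CTSO rose with PANC-1 and PPCL-68 vesicles (0.71 and 0.85).

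In HPDE the pump subunit ATP6V0A2 rose with PANC-1 vesicles from 4.93 ± 0.293 to 8.999 ± 0.481 FPKM (0.75 ± 0.06), opposite to the V0 subunits ATP6V0E1 and ATP6V0D1. ATP6V0A2 also rose with PPCL-68 vesicles in HPDE (0.94) and with PANC-1 and PPCL-68 vesicles in HPNE (0.35 and 0.56). RRAGA, a Rag GTPase that recruits mTORC1 to the lysosome, fell from 31.7 ± 0.405 to 18.7 ± 2.08 FPKM with PANC-1 vesicles in HPDE. RRAGA also fell with PPCL-68 vesicles in HPDE (-0.42) and with PANC-1 and PPCL-68 vesicles in HPNE (-0.46 and -0.53). In HPDE PPCL-68 vesicles raised FNIP1, the partner of FLCN, from 4.93 ± 0.484 to 11.2 ± 0.530 FPKM and lowered the dipeptidyl peptidase CTSC from 59.2 ± 1.02 to 28.8 ± 0.540 FPKM (-1.01 ± 0.04). FNIP1 also rose with PANC-1 vesicles in HPDE (0.66) and with PANC-1 and PPCL-68 vesicles in HPNE (0.73 and 0.83). In HPNE it held 10.4 ± 1.07 FPKM in fresh and 6.29 ± 0.249 FPKM in residual medium (-0.64 ± 0.09). With PANC-1 and PPCL-68 vesicles it held 11.1 ± 0.949 and 11.99 ± 0.120 FPKM there. CTSC also fell with PANC-1 vesicles in HPDE (-0.39) and HPNE (-0.59), while PPCL-68 vesicles in HPNE (-0.41) did not pass the test. In HPNE CTSC held 14.9 ± 2.97 FPKM in fresh and 29.6 ± 4.87 FPKM in residual medium (0.94 ± 0.19). With PANC-1 and PPCL-68 vesicles it held 19.6 ± 4.92 and 21.9 ± 2.03 FPKM there. With residual medium in HPDE, ATP6V0B and OSTM1, the partner of CLCN7, rose by 0.33 and 0.26 on the log2 scale.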

How the data were processed

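RNA was measured in 24 libraries, 3 in each of 8 groups. The authors deposited 1 table per library with an FPKM value per gene, per the file headers. The submitters' processing notes name CASAVA, STAR, HTSeq, DESeq2 and build hg19, without versions or roles, and counting settings are not given in the sources used here. The kit, per the labels' protocols, keeps no strand. Reads were recovered from the FPKM values as whole numbers.

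From the deposited FPKM values log2(FPKM + 1) was computed, and limma 3.58.1 (R 4.3.3) was fitted with a mean-variance trend to the 12 libraries of each line, over genes with a mean of at least 1 FPKM. Differences between lines came from a fit to all 24, with a common spread per gene for both lines. P-values were adjusted by Benjamini-Hochberg over all genes tested, with a threshold of 0.05. DESeq2 was not run. Tables and figures used Python 3.11.15 with numpy 2.4.6, pandas 2.3.3 and matplotlib 3.10.9. The fits were tested on simulated data. Those data gave each gene the same spread in every library of a line, so they do not cover the HPNE libraries that stood apart.

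All 37 genes are named. From 71 other lysosome genes up to 3 per comparison are named, those with the largest difference among called genes whose groups did not overlap. Members and lists were chosen with earlier results of these data known. The other settings tried were 0.1 as the pseudocount, every gene kept whatever its level, size factors, only the groups compared, the replicate number as a block, voom on recovered reads, leaving out each library and, added after seeing the data, leaving out 4 HPNE libraries. The labels give replicate numbers without saying that a number marks a shared culture or day. Deviations from the group means correlated positively within every number for HPNE PPCL-68 against PANC-1 vesicles alone (r = 0.57, 0.29 and 0.50 across genes). For HPNE residual against fresh medium they correlated negatively within every number (r = -0.39, -0.39 and -0.51). In HPDE they were negative too, and weaker, within every number for either kind of vesicles against residual medium.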

Additional observations from a re-analysis of the deposited data

Results flagged for a closer look

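The responses listed here drew attention because the change of a gene differed between the lines by a tested interaction, with an adjusted p under 0.05 in limma. Values are log2 differences, HPDE minus HPNE. For residual against fresh medium they were LAMP1 0.35, SCARB2 0.33, MCOLN1 0.65, CTSA 0.92, CTSB 0.35, CTSD 1.40, CTSH 0.42, CTSL1 1.04, TPP1 0.41, GAA 1.02, GLB1 0.58, GUSB 0.56, HEXA 0.36, IDUA 1.15, NAGLU 0.69, NEU1 1.01, SGSH 0.41, LIPA 0.40, SMPD1 0.61, ASAH1 1.38, PSAP 1.03, ATP6V0E1 0.35, ATP6V1B2 0.30 and ATP6AP1 0.32. All 24 were positive, and in 17 of them the call was made under every alternative tried, the exceptions being ATP6AP1, CTSH, LIPA, ATP6V1B2, GAA, SGSH and HEXA.

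For PANC-1 vesicles against residual medium the values were LAMP1 -0.26, LAMP2 -0.28, MCOLN1 -0.63, CTSA -0.57, CTSB -0.42, CTSD -0.65, CTSL1 -0.91, NEU1 -0.35, IDS -0.58, ASAH1 -1.0, PSAP -0.49, ATP6V0E1 -0.46, ATP6V1B2 -0.54 and ATP6V1C1 -0.35. Of these 14, CTSA, MCOLN1, ASAH1, ATP6V0E1, CTSL1, ATP6V1B2 and CTSB were called under every alternative. For PPCL-68 vesicles against residual medium the positive values were SCARB2 0.51, NEU1 0.48, SMPD1 0.70, ATP6V0D1 0.37 and TFEB 0.51, and the negative ones CTSL1 -0.65, ASAH1 -0.63 and ATP6V1C1 -0.58. The calls of TFEB and ATP6V0D1 were each lost under at least 1 alternative. The residual libraries enter all of these contrasts, so the lists are not independent of each other.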

How the results depend on the processing

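Counts of lysosome genes called in HPNE depended most on the processing, and the causes were not tested. PANC-1 vesicles against residual medium gave 14 calls, and 8 with no filter, 6 with only the groups compared, 25 without the 4 HPNE libraries that stood apart and 4 to 20 leaving out 1 library. Without those 4 libraries, a selection that narrows the spread within groups, the share of all genes called rose too, from 24.2% to 58.9%. PPCL-68 vesicles against residual medium gave 20 (39.9%), and 13 with no filter (13.7%) and 12 to 22 leaving out 1 library (26.9% to 47.0%). Residual against fresh medium gave 23 (43.9%), and 14 to 23 leaving out 1 library (26.5% to 52.6%). PANC-1 vesicles against fresh medium gave 7 (21.1%), and 4 with no filter (6.67%), 23 without the 4 libraries (62.7%) and 3 to 8 leaving out 1 library (9.09% to 26.7%). PPCL-68 vesicles against fresh medium gave 15 (42.5%), and 27 without the 4 libraries (69.5%) and 11 to 18 leaving out 1 library (31.2% to 44.3%). PPCL-68 against PANC-1 vesicles gave 4 (5.47%), and 2 with only the groups compared (2.81%), 16 without the 4 libraries (36.4%) and 1 to 5 leaving out 1 library (1.17% to 7.96%). Counts in HPDE moved less, to 22 in each case (from 22), 22 to 25 (23), 8 to 10 (11), 16 to 18 (18), 18 to 23 (24) and 20 to 22 (22) leaving out 1 library, for PANC-1 and PPCL-68 vesicles against residual medium, residual against fresh medium, PANC-1 and PPCL-68 vesicles against fresh medium, and PPCL-68 against PANC-1 vesicles. The shares leaving out 1 library were, in the same order, 58.2% to 60.3%, 64.0% to 64.7%, 11.6% to 17.3%, 55.4% to 57.0%, 61.6% to 62.9% and 42.9% to 46.5%. Interaction counts were 14 for PANC-1 vesicles (8 with only the groups compared, 10 to 19 leaving out 1 library), 8 for PPCL-68 vesicles (18 without the 4 libraries, 6 to 14) and 24 for residual medium (19 to 24), and the line comparison gave 30 (30 to 31). The interaction shares were 21.2% for PANC-1 vesicles (16.3% with only the groups compared, 16.2% to 34.9% leaving out 1 library) and 25.7% for PPCL-68 vesicles (45.9% without the 4 libraries, 21.6% to 35.5%). They were 38.1% for residual medium (29.3% to 48.9%). Direction turned in 7 cases. Without the 4 libraries CTSK became 0.32 in HPNE residual against fresh medium and CTSZ 0.15 in HPNE PPCL-68 vesicles against fresh medium, while GLA became -0.31 and CTSK -0.53 in the interaction for residual medium. With size factors ATP6V1H became -0.21, ATP6AP1 -0.30 and ATP6V1C1 -0.28 in the line comparison.

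With the replicate number as a block 12 genes were called for HPNE PANC-1 vesicles against residual medium, 21 for PPCL-68 vesicles against residual medium and 24 for residual against fresh medium. The shares of all genes called with the block were 22.4%, 39.3% and 43.0%. For PPCL-68 against PANC-1 vesicles the block gave 4 as before, with 4.78% of all genes called. Same-numbered deviations correlated positively there, but replicate 1 stood apart in both groups. The correlation therefore cannot tell whether equal numbers mark paired libraries. Of 564 gene results, 552 kept their side of the threshold with the block, 5 gained a call and 7 lost one. CLN3 in both lines, and CTSK and HEXA in HPDE, lay below the mean level required for testing.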
